A study of Mus musculus with 8 samples.

Results

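The genes described here are 10 chaperone genes of the heat shock response in mouse dorsal skin: Hspa1a, Hspa1b, Hspb1, Hsp25-ps1, Dnajb1, Hsph1, Hsp90aa1, Hspa8, Bag3 and Hspe1. They were taken by gene symbol from the 55488 genes counted in each library, and they were chosen with their counts in these same libraries known. Their differences between genotypes, and any calls made on them, are therefore given as a description only and not as a test. Bulk RNA-seq was done on 4 libraries from mice with a knockout of Tph1 and on 4 libraries from wild-type mice, all 3 months old. Tph1 encodes the tryptophan hydroxylase that makes serotonin outside the brain. Sex, strain, litter, batch and the kind of knockout allele are not in the labels. Nor do they tell whether the libraries of a genotype are separate mice, and p-values then reflect the spread between these libraries alone, which may be technical.

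Heat and other stresses that unfold proteins activate heat shock factor 1 (HSF1), which binds heat shock elements, inverted repeats of the unit GAA and its complement TTC, and switches on chaperone genes. HSP70 proteins hold unfolded chains in cycles of ATP use, J-domain proteins (HSP40) load them, HSP110 and BAG proteins release them, HSP90 finishes the folding of signalling proteins, and small heat shock proteins keep unfolding chains from clumping without using ATP. In skin the small heat shock protein HSPB1 is abundant in differentiating keratinocytes, and several of these genes are known for rapid induction by stress.

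The upstream sequences are shown because these genes differ in the elements they carry, and a link to their differences between genotypes was not tested. RefSeq promoter windows on GRCm38.p6, from 250 bases before to 50 bases after a start site, were found for 7 of the 10 genes, and Hspa8, Hsp90aa1 and Hsp25-ps1 had no entry. A short element was searched as GAANNTTC or TTCNNGAA, and a long element as GAANNTTCNNGAA or TTCNNGAANNTTC, each read on both strands, and every long element contains short ones. The 120 bases before the start site are printed for Hspa1a (chr17:34972157-34972276, minus strand), Hspa1b (chr17:34959239-34959358, minus strand), Hspb1 (chr5:135887799-135887918, plus strand) and Dnajb1 (chr8:83608055-83608174, plus strand), with short elements in capitals. A stretch of 30 bases around the long elements is printed for Hspe1 (chr1:55088053-55088082, plus strand) and Hsph1 (chr5:149636287-149636316, minus strand).
Hspa1a: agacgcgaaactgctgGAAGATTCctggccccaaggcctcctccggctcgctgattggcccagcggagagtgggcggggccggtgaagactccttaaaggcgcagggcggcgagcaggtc
Hspa1b: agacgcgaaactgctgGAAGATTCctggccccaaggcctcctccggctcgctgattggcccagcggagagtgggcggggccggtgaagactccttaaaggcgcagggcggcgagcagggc
Hspb1: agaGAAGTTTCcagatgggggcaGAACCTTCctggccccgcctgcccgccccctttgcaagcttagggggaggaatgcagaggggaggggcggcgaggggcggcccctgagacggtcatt
Dnajb1: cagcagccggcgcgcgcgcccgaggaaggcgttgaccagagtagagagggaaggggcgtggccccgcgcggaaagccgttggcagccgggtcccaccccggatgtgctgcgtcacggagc
Hspe1: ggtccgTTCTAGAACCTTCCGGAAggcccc
Hsph1: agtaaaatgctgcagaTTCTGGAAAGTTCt

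The short element was present in the windows of 6 of the 7 genes, all but Dnajb1. Of all 27025 genes with a window, 17% had it in at least 1, and it was in 15.1% of all 32851 promoter windows. Hspa1a and Hspa1b carried it at the same place, its first base at -104, and their 120 upstream bases differed at 1 base. Hspb1 carried it at -117 and at -97. The long element was present in 2 of the 7 genes, Hspe1 and Hsph1, in 0.662% of all genes with a window, and in 0.603% of all windows. Hspe1 had overlapping copies at -89 and -84. Hsph1 had it at 37 after the start site in 1 of its windows and at 16 in the other. Bag3 had a short element at 43 after the start site. A match is a run of letters and not a shown binding site, and a window without one says only that these letters are not in it.

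**Figure D1:**
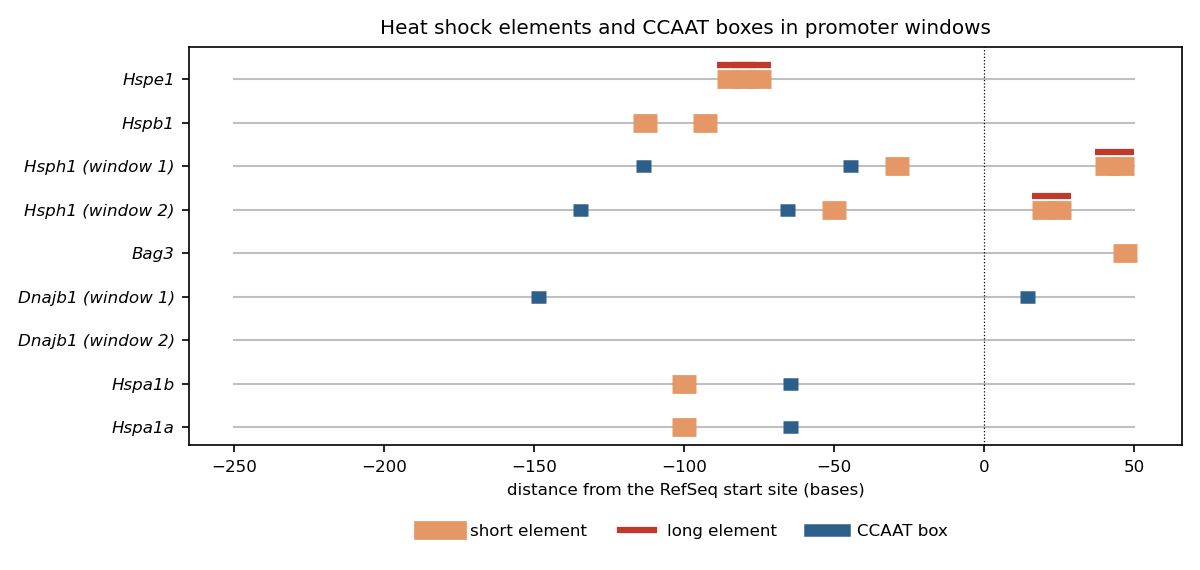
Positions of the short and long heat shock elements and of CCAAT boxes (CCAAT or ATTGG) in the RefSeq promoter windows of 7 of the genes, in bases from the start site. Each grey line is 1 window from 250 bases before to 50 after the start site, and Hsph1 and Dnajb1 each have a pair of windows. The elements of Hspa1a and Hspa1b lie at the same distance, and neither Dnajb1 window holds an element.

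The libraries held between 20531601 and 24678638 expected counts. Tph1 had 0 expected counts in all 4 knockout libraries, against 18, 0, 27 and 11 in wild type replicates 1 to 4. Libraries that stood apart included wild type replicate 2, which lacked Tph1 counts, and Tph1 knockout replicate 3. In Tph1 knockout replicate 3 hair follicle markers summed to 2155 CPM (counts per 1000000, relative to TMM-scaled library size) against 62.0 to 228 CPM elsewhere. Wild type replicate 1 had the highest summed fibroblast markers, 3554 CPM against 527 to 1810 CPM elsewhere. Wild type replicate 3 had the lowest summed skeletal muscle markers. Keratinocyte, fibroblast and skeletal muscle markers were detected in every library, and summed skeletal muscle markers spanned 44128 to 80296 CPM in knockout and 10722 to 73227 CPM in wild type. Of 16908 genes tested by edgeR's quasi-likelihood test, 110 were called at an adjusted p under 0.05, 90 lower and 20 higher in knockout.

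All 10 chaperone genes passed the filter on low counts. Hspa1a, Hspb1, Hsp25-ps1 and Dnajb1 were lower in every knockout library than in any wild-type library, at 0.438 to 0.535 of the wild-type level, while Hspa1b and Hsp90aa1 were lower on average with overlapping genotypes and Hspa8, Hsph1, Bag3 and Hspe1 overlapped as well, with log2 fold changes between -0.24 and 0.18. Thus 4 of 10 did not overlap and were lower, where 5.65% of all tested genes did so. Without wild type replicate 2 and Tph1 knockout replicate 3 the count, an alternative chosen after seeing the data, was again 4, against 12.8% of all tested genes. By the edgeR test 1 of the 10, Hsp25-ps1, was called lower, where 0.532% of all tested genes were, a call kept in only 2 of the 8 fits without 1 library, those lacking wild type replicate 2 or Tph1 knockout replicate 3. DESeq2 called 4 of the 10 lower, Hspa1a, Hspb1, Hsp25-ps1 and Dnajb1, where it called 648 of all 16908 tested genes lower and 5.88% in either direction. Since the genes were chosen on this contrast, and Hspb1 and its pseudogene Hsp25-ps1 share reads, nothing is read from these counts. The median log2 fold change, knockout over wild type, was -0.46, and it was 0.03 over all tested genes.

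**Figure D2:**
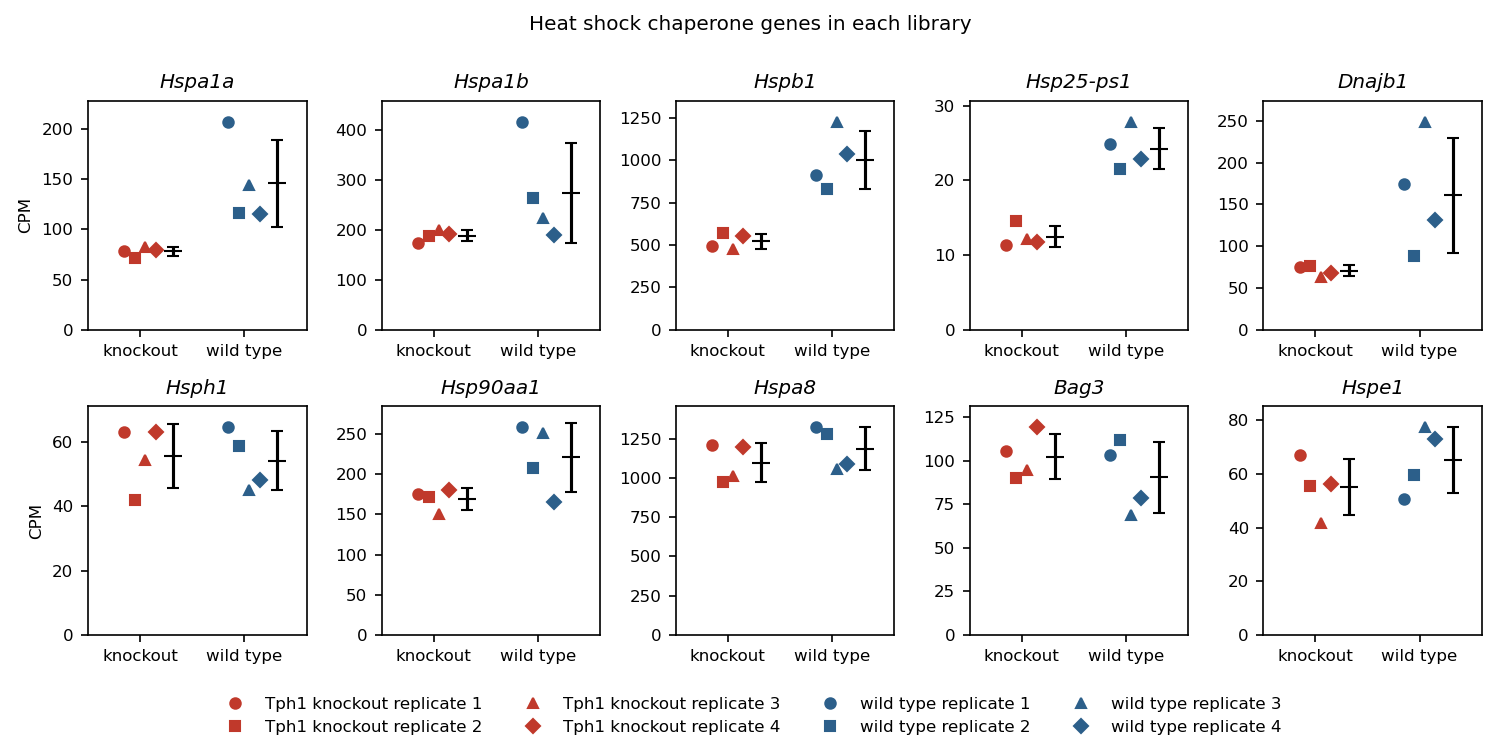
CPM of the 10 genes in each library, with the 4 Tph1 knockout libraries on the left and the 4 wild-type libraries on the right of each panel. Symbols mark replicates, and the bar beside each group is its mean with the SD. The genotypes do not overlap for Hspa1a, Hspb1, Hsp25-ps1 and Dnajb1, and the wild-type libraries spread more widely for Hspa1a, Hspa1b and Dnajb1.

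Hspa1a and Hspa1b encode the stress-inducible HSP70 proteins and are neighbours on chromosome 17, at chr17:34969190-34972156 and chr17:34956436-34959238, both on the minus strand (GRCm38, GENCODE). Hspa1a had 78.2, 71.8, 82.0 and 79.9 CPM in knockout replicates 1 to 4, against 207, 117, 144 and 115 CPM in wild type replicates 1 to 4. The knockout libraries lay within a narrow band below all wild-type libraries, and wild type replicate 1 was far above the others. Its log2 fold change was -0.90 ± 0.19 (SE), with means of 78.0 ± 4.4 CPM in knockout and 146 ± 43.1 CPM in wild type (SD, n = 4 each). Hspa1b had 174, 187, 200.4 and 192 CPM in knockout, against 416, 263, 225 and 191 CPM in wild type. Here wild type replicate 4 lay within the knockout range and wild type replicate 1 was again the highest. The log2 fold change of Hspa1b was -0.54 ± 0.23 (SE), and -0.26 without wild type replicate 1.

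The coding sequences of these neighbours were identical at 1915 of 1926 aligned bases (99.4%), with an identical run of 638 bases, and 47.1% of the 100-base stretches of the Hspa1a transcript also occurred in Hspa1b. RSEM divides reads from such stretches between genes by probability, so the split between the pair is uncertain while their sum does not depend on it. A stretch of 90 coding bases, 1327 to 1416, is shown because it holds bases that tell the copies apart, here in capitals, at chr17:34970510-34970599 in Hspa1a and chr17:34957592-34957681 in Hspa1b, both on the minus strand.
Hspa1a: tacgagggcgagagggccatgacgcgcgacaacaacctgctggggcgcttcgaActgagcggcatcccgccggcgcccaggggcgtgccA
Hspa1b: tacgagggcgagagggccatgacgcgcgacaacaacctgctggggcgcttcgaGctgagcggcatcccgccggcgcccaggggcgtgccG

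The summed counts of Hspa1a and Hspa1b were 252, 259, 282 and 272 CPM in knockout replicates 1 to 4, against 624, 380, 369 and 306 CPM in wild type replicates 1 to 4. On the sum the genotypes did not overlap, although wild type replicate 4 was close to the highest knockout library. The log2 fold change of the sum was -0.66 ± 0.22 (SE). Hspa1a made up 27.7% to 31.0% of the pair in knockout and 30.7% to 39.1% in wild type, and these ranges overlap. The constitutive HSP70 gene Hspa8 shared 73.9% of the coding bases of Hspa1a and none of its 50-base stretches, so it is not part of this uncertainty. Hspa1a also lies opposite Gm20481, which held 0 to 21 counts, and the library kit does not mark strand.

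**Figure D3:**
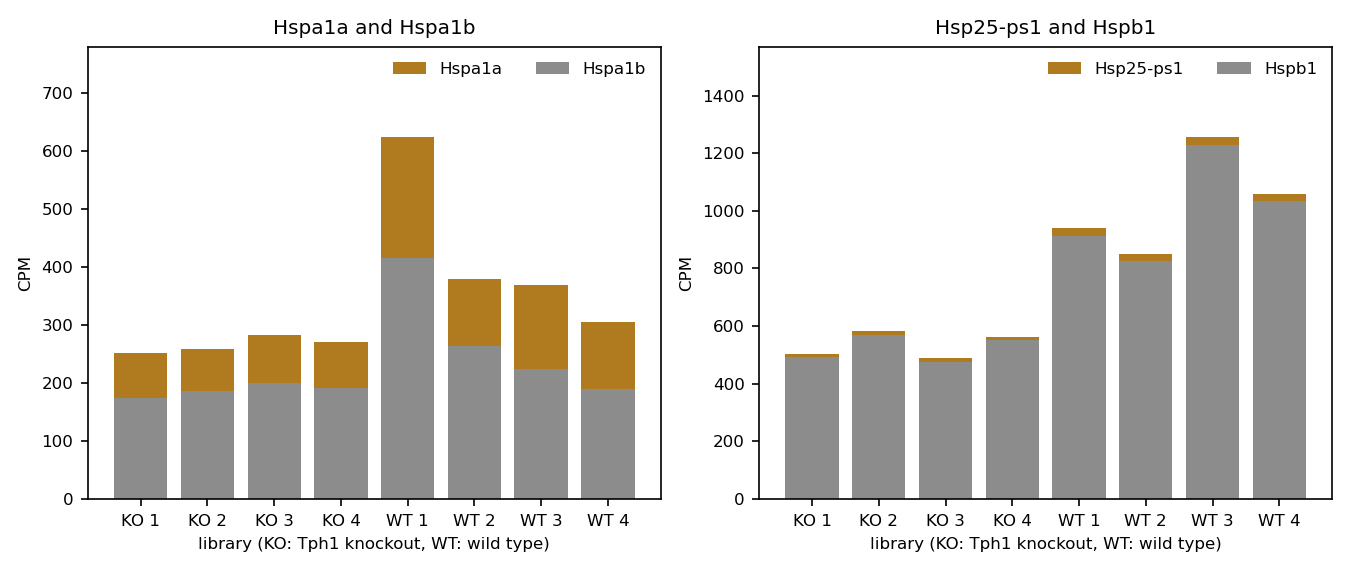
Stacked CPM of Hspa1a on Hspa1b (left) and of Hsp25-ps1 on Hspb1 (right) in each library, with the Tph1 knockout libraries (KO) left of the wild-type libraries (WT). The bar tops are the pair sums, 252 to 282 CPM in knockout and 306 to 624 CPM in wild type on the left, and 489 to 584 CPM in knockout and 849 to 1255 CPM in wild type on the right.

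Hspb1 encodes HSP27 (HSP25 in mouse), the small heat shock protein that protects keratinocytes and the actin skeleton, at chr5:135887919-135889563 on the plus strand. It had 493, 569, 477 and 551 CPM in knockout, against 914, 827, 1227 and 1034 CPM in wild type. Every knockout library was below every wild-type library, and the gap between the groups was wider than the range within the knockout libraries. Its log2 fold change was -0.94 ± 0.18 (SE), a fold of 0.522. In bulk tissue, fewer cells of a type and less RNA per cell cannot be told apart: the summed keratinocyte markers were 12720 to 17942 CPM in knockout and 20194 to 29467 CPM in wild type, also without overlap. All 8 keratinocyte markers had log2 fold changes below 0, with a median of -0.48, and 1 passed the edgeR test, Lor, a protein of the cornified envelope (log2 fold change -1.47 ± 0.24 SE, adjusted p = 0.0379). Their part in the Hspb1 values was not tested.

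Hsp25-ps1 is a processed pseudogene of Hspb1 on chromosome 13 (chr13:45078498-45079127, minus strand). It was identical to the Hspb1 coding sequence at 623 of 627 bases, with a run of 552 bases without a difference, and 85.3% of its 100-base stretches also occurred in Hspb1. The stretch of coding bases 520 to 609 is shown because it holds 3 of the 4 differing bases, in capitals, at chr5:135889320-135889409 (plus strand) in Hspb1 and chr13:45078519-45078608 (minus strand) in the pseudogene.
Hspb1: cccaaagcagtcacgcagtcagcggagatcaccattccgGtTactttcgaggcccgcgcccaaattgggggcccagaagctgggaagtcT
Hsp25-ps1: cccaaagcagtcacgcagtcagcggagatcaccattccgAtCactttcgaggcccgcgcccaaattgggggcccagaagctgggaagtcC

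Hsp25-ps1 had 11.4, 14.6, 12.2 and 11.8 CPM in knockout, against 24.8, 21.6, 27.9 and 22.8 CPM in wild type. The groups did not overlap, and wild type replicates 3 and 2 were highest and lowest for both the gene and the pseudogene. Its log2 fold change of -0.96 ± 0.14 (SE) was close to that of Hspb1, and its share of the pair's counts was 2.09% to 2.50% in knockout and 2.16% to 2.65% in wild type. Reads from the shared stretches can be counted to either, so the pseudogene's counts are no separate measurement of a transcript. With the pair's counts summed the log2 fold change was -0.94 ± 0.18 (SE), and the summed pair did not pass the edgeR test.

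Dnajb1, the J-domain protein (HSP40) that hands clients to inducible HSP70, lies at chr8:83608193-83612653 on the plus strand. It had 74.7, 76.7, 62.7 and 67.8 CPM in knockout replicates 1 to 4, against 175, 88.0, 249 and 132 CPM in wild type replicates 1 to 4. The knockout libraries were close together, and wild type replicate 2 was nearest to them while replicate 3 was the highest. With a log2 fold change of -1.19 ± 0.27 (SE), a fold of 0.438, it had the lowest value of the 10 genes, and its wild-type coefficient of variation, 42.7%, was the highest of the 10.

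Hsp90aa1, the inducible cytosolic HSP90 (chr12:110690605-110702728, minus strand), had 175, 171, 150.3 and 181 CPM in knockout, against 259, 208, 251 and 166 CPM in wild type. Wild type replicate 4 was below 3 of the knockout libraries and the other wild-type libraries were above all of them. Its log2 fold change was -0.38 ± 0.16 (SE).

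Hspa8, the constitutive HSP70 that also strips clathrin from vesicles (chr9:40800984-40810087, plus strand), had 972 to 1212 CPM in knockout and 1057 to 1324 CPM in wild type. The log2 fold change was -0.11 ± 0.18 (SE). Hsph1, an HSP110 protein that releases ADP from HSP70 (chr5:149614287-149636376, minus strand), had 42.1 to 63.2 CPM in knockout and 45.0 to 64.7 CPM in wild type. Its log2 fold change was 0.04 ± 0.17 (SE), and its sign differed between fits, from -0.07 with a correction for effective gene length to 0.15 without Tph1 knockout replicate 2. Bag3, the exchange factor that steers HSP70 clients to autophagy and is important in muscle (chr7:128523616-128546981, plus strand), had 90.2 to 119 CPM in knockout and 68.6 to 112 CPM in wild type. The log2 fold change was 0.18 ± 0.17 (SE). The genotypes overlapped for all 3 genes.

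Hspe1 encodes the mitochondrial HSP10 lid of the HSP60 chamber and starts beside Hspd1, the HSP60 gene, in the opposite direction (chr1:55088132-55091307, plus strand). It had 67.0, 55.3, 41.7 and 56.2 CPM in knockout, against 50.5, 59.5, 77.5 and 72.9 CPM in wild type. Knockout replicate 1 was above wild type replicates 1 and 2, so the genotypes overlapped. Its log2 fold change was -0.24 ± 0.18 (SE), -0.13 without Tph1 knockout replicate 3 and -0.15 without wild type replicate 3. The genes overlap by 112 bases in the annotation, and reads there cannot be told apart by strand. Hspd1 itself had a log2 fold change of -0.03 ± 0.13 (SE, adjusted p = 0.930 by the edgeR test).

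Levels of the 10 genes can be ordered per length, in transcripts per 1000000 (TPM), within each genotype (mean ± SD, n = 4 each). Hspb1 and Hspa8 were the highest in both, with Hspb1 at 871 ± 129 TPM in knockout and 1709 ± 306 TPM in wild type, and Hspa8 at 767 ± 158 TPM in knockout and 801 ± 174 TPM in wild type. The libraries of these genes overlapped in knockout and did not overlap in wild type. In knockout the next were Hspe1 (108 ± 4.1 TPM), Hspa1b (90.0 ± 19.2 TPM) and Hsp90aa1 (88.0 ± 7.7 TPM). There Hspe1 (lowest library 104 TPM) lay above Hsp90aa1 (highest library 98.4 TPM), while Hspa1b overlapped both. In wild type Hspa1b (137 ± 63.6 TPM), Hspe1 (133 ± 19.3 TPM) and Hsp90aa1 (120 ± 38.5 TPM) overlapped each other. Bag3 came next in knockout at 53.1 ± 7.4 TPM, with all 4 libraries above those of Hspa1a (35.0 ± 6.7 TPM), Hsp25-ps1 (32.9 ± 7.0 TPM), Dnajb1 (31.0 ± 3.4 TPM) and Hsph1 (28.1 ± 6.0 TPM), which overlapped each other. In wild type Bag3, at 49.0 ± 13.9 TPM, had instead a lower mean than Dnajb1 (74.1 ± 34.2 TPM), Hspa1a (68.4 ± 27.0 TPM) and Hsp25-ps1 (65.4 ± 11.7 TPM), and overlapped each of them. Hsph1 was again the lowest in wild type, at 31.3 ± 7.1 TPM.

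The spread between libraries of 1 genotype also differed from gene to gene. The coefficient of variation of Hspa1a was 5.65% in knockout and 29.5% in wild type, and that of Hspa1b was 5.79% in knockout and 36.4% in wild type. Dnajb1 varied by 9.19% in knockout and by 42.7% in wild type. Hsp25-ps1, Hsph1, Hspa8 and Hspe1 had much the same coefficient in both genotypes, for example 11.2% in knockout and 11.4% in wild type for Hspa8. Over the 8 libraries, after each genotype's mean was subtracted, log2(CPM + 1) of Hspa8 and Hsph1 had a Pearson correlation of 0.95, Hspa8 and Bag3 of 0.90, and Hspa1a and Hspa1b, which share reads, of 0.85. Hspb1 and Dnajb1 had 0.78, whereas Hspb1 and Bag3 had -0.75. The 10 genes thus did not follow 1 common pattern within genotypes. These libraries share depth and tissue composition, and the correlations are a description.

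The mean level of the 10 genes, as the mean of log2(CPM + 1), was 6.91, 6.83, 6.77 and 6.93 in knockout replicates 1 to 4, against 7.52, 7.23, 7.40 and 7.17 in wild type replicates 1 to 4. The difference was -0.47, with SDs of 0.08 in knockout and 0.16 in wild type. Among 13552 genes ranked, those whose genotype-centred pattern over the 8 libraries was most like this mean included Slk (r = 0.97), Impa1, Npl, Itpkc, Pgf, Ifi202b, Tmed2, Dusp7 and Dio2 (r = 0.93). None of these named genes passed the edgeR test between genotypes, with adjusted p between 0.0576 and 0.863. The 10 chaperone genes, each part of the mean, had correlations with it from -0.05 for Hspe1 to 0.92 for Hsp90aa1.

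The wider protein folding network was read from 11 lists of 113 other genes, of which 111 were tested. These lists were written with earlier results of these data known. None of the 111 passed the edgeR test, where 0.651% of all tested genes did. At an unadjusted p under 0.05 there were 19, where 17.6% of all tested genes reached it. These were 12 lower and 7 higher, where 9.37% of all tested genes were lower and 8.26% higher. DESeq2 called 7, 5 lower and 2 higher, where it called 5.88% of all tested genes. Hmox1 alone was called by edgeR in the fit without wild type replicate 2, in that without this library and Tph1 knockout replicate 3, and without the filter on low counts. The median log2 fold change over the 111 genes was -0.07, and 68 were below 0, where 46.9% of all tested genes were.

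Heat shock factors, the regulators of the response, had log2 fold changes between -0.08 and 0.41. Hsf1 averaged 53.7 ± 6.5 CPM in knockout and 50.5 ± 3.3 CPM in wild type (SD, n = 4 each), a log2 fold change of 0.09 ± 0.12 (SE), and its sign turned, to -0.03, with a correction for effective gene length. Hsf4, the factor best known from the lens, had 0.41 ± 0.30 (SE), and Hsbp1, a small protein that binds HSF1, had -0.08 ± 0.14 (SE). No gene of this list of 4 passed the test.

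Among the other HSP70 and HSP110 genes, none of 8 passed and the median was -0.06, a sign that turned in 3 of the 8 fits without 1 library. Hspa1l, the testis-type HSP70 next to the Hspa1a locus, had the opposite direction to its neighbours, with 24.2 to 33.2 CPM in knockout and 6.2 to 20.9 CPM in wild type. All knockout libraries were above all wild-type libraries, as for 5.39% of all tested genes, but the difference did not pass the test (log2 fold change 0.98 ± 0.32 SE, adjusted p = 0.178 by edgeR). In wild type Hspa1l and the summed skeletal muscle markers were both highest in replicate 2 and lowest in replicate 3. In knockout both were highest in replicate 1, while Hspa1l was lowest in replicate 2 and the muscle sum in replicate 3. Whether muscle content set the Hspa1l values was not tested. Hspa4, an HSP110 protein, had -0.34 ± 0.13 (SE). Of 13 HSP90 and co-chaperone genes none passed, with a median of -0.08, and the constitutive Hsp90ab1 had -0.14 ± 0.19 (SE) and the steroid-responsive Fkbp5 0.51 ± 0.28 (SE).

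Of the 9 other small heat shock protein genes 8 were tested, none passed, and their median was 0.56, against -0.94 for Hspb1. Hspb7, found mainly in heart and skeletal muscle, had 309, 222, 402 and 294 CPM in knockout, against 87.9, 163, 49.2 and 146 CPM in wild type. The groups did not overlap, and the log2 fold change was 1.46 ± 0.35 (SE, adjusted p = 0.0977 by edgeR). DESeq2 called it. Cryab, the alpha B crystallin of lens and muscle, averaged 584 ± 85.3 CPM in knockout and 382 ± 153 CPM in wild type (SD, n = 4 each). Hspb8, a partner of Bag3, averaged 282 ± 42.9 CPM in knockout and 369 ± 51.5 CPM in wild type. Beside these values, all 7 skeletal muscle markers had log2 fold changes above 0, with a median of 0.46, and their sums were 80296, 44697, 44128 and 79511 CPM in knockout replicates 1 to 4, against 28410, 73227, 10722 and 59163 CPM in wild type replicates 1 to 4. The least Hspb7 was in wild type replicate 3, the library with the lowest muscle sum, but the most was in knockout replicate 3, which had the lowest muscle sum of the knockout libraries. Whether muscle content set these values was not tested.

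None of 17 other J-domain genes passed, with a median of 0.07. Dnaja1, an HSP40 of the cytosol, had -0.49 ± 0.20 (SE), Dnaja4 0.53 ± 0.18 (SE) and Dnajc18 0.40 ± 0.12 (SE). The 8 other exchange factors and partners of HSP70 had a median of -0.13, with Bag1 at -0.34 ± 0.17 (SE). The 8 other mitochondrial chaperones and proteases had a median of 0.11, with Hspa9, the mitochondrial HSP70, at 0.09 ± 0.18 (SE), a sign that turned without Tph1 knockout replicate 1. The 8 subunits of TRiC, the chamber that folds actin and tubulin, all had log2 fold changes below 0 with a median of -0.16, led by Cct3 at -0.33 ± 0.12 (SE). No gene of these 4 lists passed the edgeR test.

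The 8 further heat-inducible genes had the lowest median of the 11 lists, -0.43. Their log2 fold changes ran from -1.60 to 0.36, with 7 below 0 and 1 above it, where 46.9% of all tested genes were below 0. Hmox1, the haem-degrading enzyme, had 37.0, 37.4, 35.5 and 35.0 CPM in knockout, against 86.1, 44.0, 78.2 and 65.8 CPM in wild type. The knockout libraries were nearly equal and wild type replicate 2 was nearest to them (log2 fold change -0.92 ± 0.19 SE, adjusted p = 0.0659 by edgeR). Mt2, a metal-binding metallothionein, averaged 245 ± 80.1 CPM in knockout and 742 ± 415 CPM in wild type (SD, n = 4 each). For Mt2 the log2 fold change was -1.60 ± 0.39 (SE, adjusted p = 0.102 by edgeR). The genotypes did not overlap, with knockout lower, for 4 of the 8 genes, Hmox1 and Mt2 among them, where 5.65% of all tested genes did so. For the rest of the 8 the genotypes overlapped. DESeq2 called 4 of the 8, all lower, where it called 648 of all 16908 tested genes lower and 5.88% in either direction.

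Of 22 genes of protein folding in the endoplasmic reticulum 18 had log2 fold changes below 0, the median was -0.20 and none passed the edgeR test. Manf, a secreted protein induced by unfolded proteins there, had 40.0, 32.9, 35.2 and 36.3 CPM in knockout, against 50.7, 55.2, 67.1 and 45.4 CPM in wild type. The groups did not overlap (log2 fold change -0.60 ± 0.14 SE, adjusted p = 0.0905 by edgeR). Creld2 had -0.55 ± 0.17 (SE) and Pdia6, a disulphide isomerase, -0.40 ± 0.13 (SE). Of 8 oxidative stress genes 7 were tested and none passed, with Nqo1 at 0.49 ± 0.20 (SE), Gclc at 0.37 ± 0.16 (SE) and Prdx1 at -0.34 ± 0.16 (SE).

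**Figure D4:**
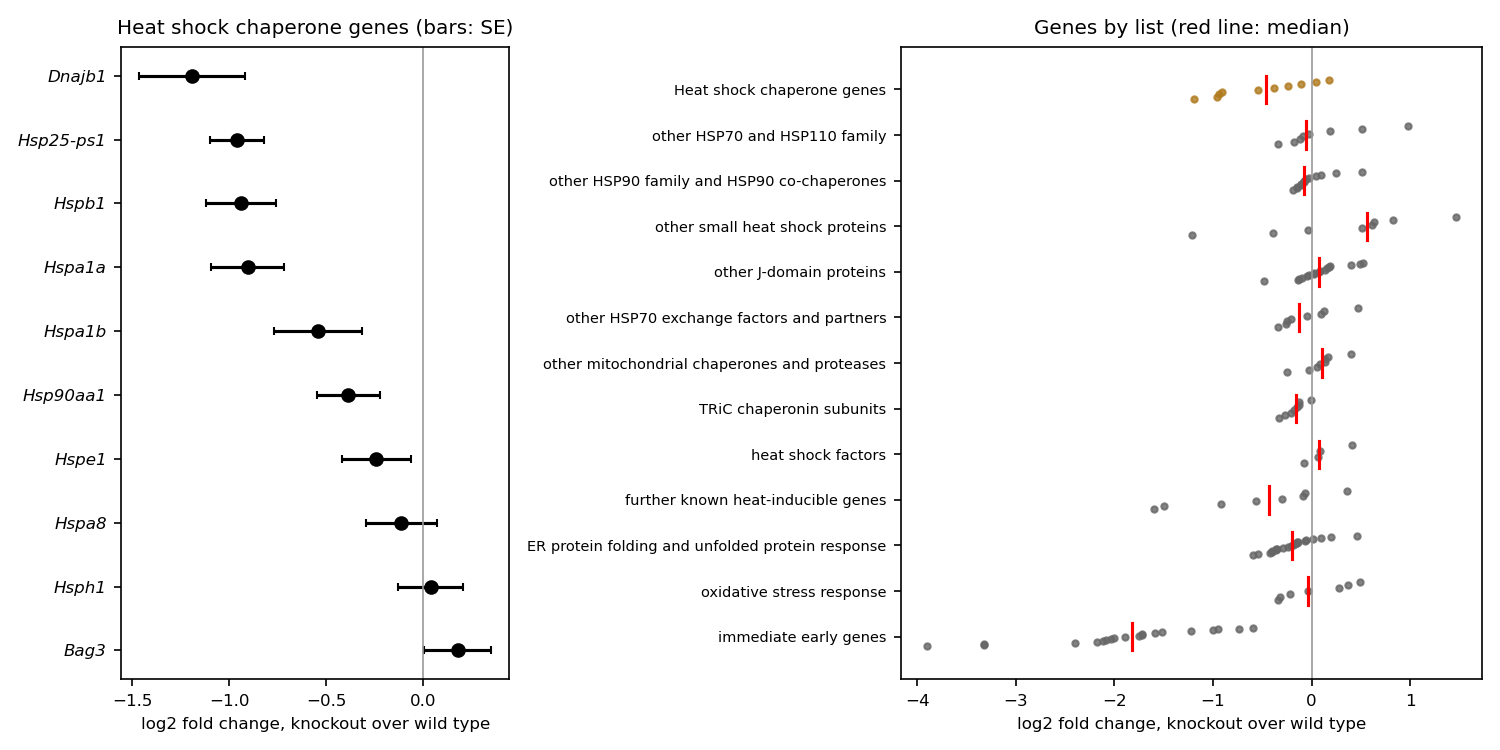
Log2 fold changes, Tph1 knockout over wild type, of the 10 heat shock chaperone genes with their SE (left), and of these and all tested genes of 12 other lists, 1 point a gene with the median in red (right). The chaperone genes run from -1.19 for Dnajb1 to 0.18 for Bag3, and the immediate early genes have the lowest median, -1.82.

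Immediate early genes, which are transcribed within minutes of a stimulus, stood beside the chaperone genes as a list of 20. Of these 3 fell in knockout by the edgeR test, where 0.532% of all tested genes did: Nr4a1 (log2 fold change -2.18 ± 0.33 SE, adjusted p = 0.0324), Csrnp1 (-2.40 ± 0.41 SE, adjusted p = 0.0399) and Arc (-3.90 ± 0.67 SE, adjusted p = 0.0429). All 20 had values below 0, where 46.9% of all tested genes did, with a median of -1.82. DESeq2 called 13, all lower, where it called 648 of all 16908 tested genes lower and 5.88% in either direction. The list was written with earlier results of these data known, so these comparisons with all tested genes are a description. Nr4a1, an orphan nuclear receptor, had 158, 127, 82.7 and 137 CPM in knockout, against 716, 311, 833 and 423 CPM in wild type. The genotypes did not overlap, and wild type replicate 2 was the lowest of its group. Of the 8 fits without 1 library, Nr4a1 was called in 2, those lacking wild type replicate 2 or Tph1 knockout replicate 3, and Csrnp1 and Arc in 1, that without wild type replicate 2. Both also lost the call without the filter on low counts, and Csrnp1 lost it with the correction for effective gene length.

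The mean level of the immediate early genes, in log2(CPM + 1), was 5.81, 6.46, 5.81 and 5.50 in knockout replicates 1 to 4, against 8.18, 6.40, 8.25 and 7.39 in wild type replicates 1 to 4. Wild type replicate 2 thus lay just below knockout replicate 2. Dnajb1 and Hmox1 were likewise lowest in wild type replicate 2 among the wild-type libraries and high in replicates 1 and 3, whereas Hspa1a and Hspa1b were high in replicate 1 and lowest in replicate 4. Without wild type replicate 2 and Tph1 knockout replicate 3 the log2 fold changes were -1.36 for Dnajb1, -1.04 for Hspa1a, -0.99 for Hspb1 and -1.02 for Hsp25-ps1. The part of the immediate early genes' level in the chaperone values was not tested.

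**Figure D5:**
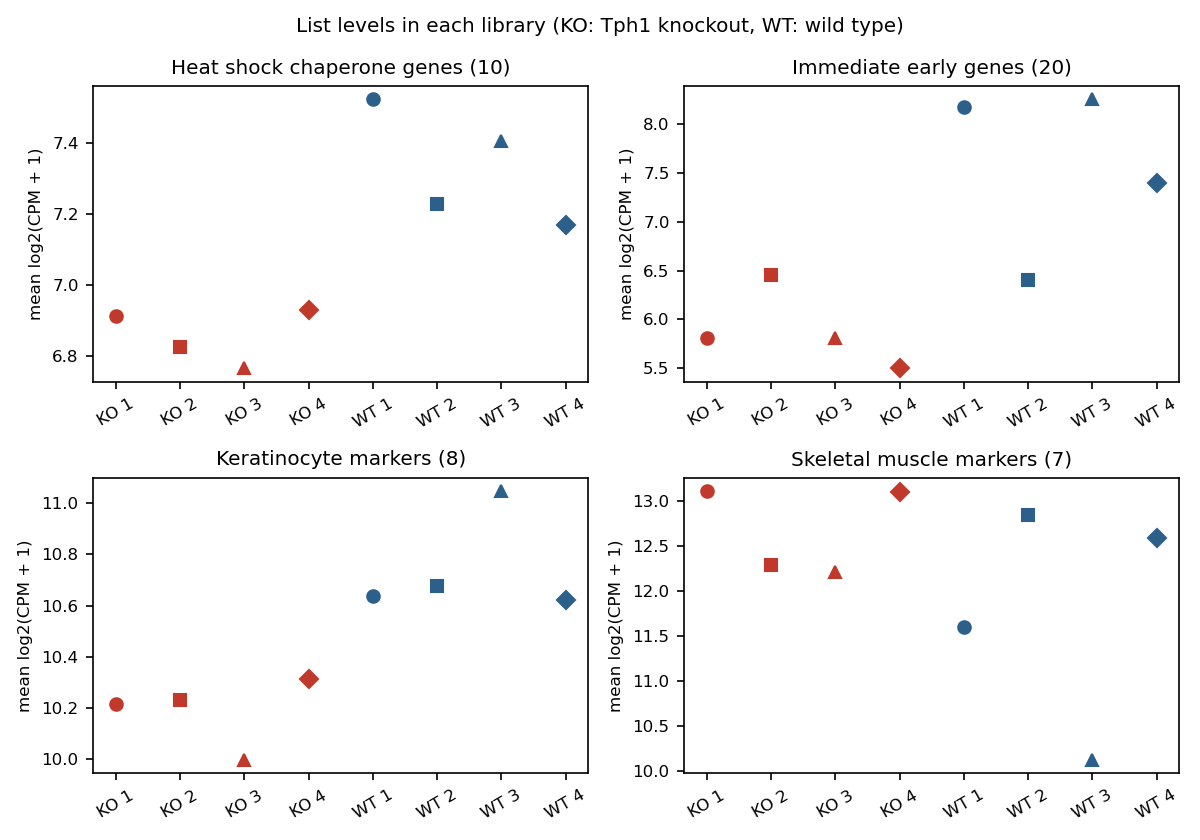
Mean log2(CPM + 1) per library of the 10 heat shock chaperone genes, 20 immediate early genes, 8 keratinocyte markers and 7 skeletal muscle markers, with the 4 Tph1 knockout libraries (KO) left of the 4 wild-type libraries (WT). The chaperone and keratinocyte levels do not overlap between genotypes, the immediate early level of wild type replicate 2 (6.40) lies below that of knockout replicate 2 (6.46), and the muscle levels overlap.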

How the data were processed

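Bulk RNA-seq of dorsal skin was analysed from 1 deposited table per library, 4 Tph1 knockout and 4 wild type, with genotypes from the labels. RNA came from a Qiagen column kit and went into NEBNext Ultra RNA libraries, per the labels' protocols. GRCm38, DESeq, DESeq2, RSEM 1.31 and STAR 2.7.6a appear in the submitters' processing notes without a stated role. The expected counts, per the file headers of the deposited tables, are RSEM's estimated reads per gene, not normalized, in 55488 genes. They were rounded to whole numbers. The deposited TPM values, per the file headers scaled to gene length and depth, gave levels between genes and 1 alternative, and the deposited FPKM values were not used. Effective lengths were read from the deposited tables for another alternative. A matrix of normalized signal for 17382 genes, deposited by the authors and named DESeq2-normalized in the labels, served as 1 more.

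Genes with enough counts (edgeR's filterByExpr, minimum count 10 and minimum total 15) were scaled by TMM. The robust quasi-likelihood F test of edgeR 4.0.16 (R 4.3.3) had a single term, genotype. Adjusted p-values are Benjamini-Hochberg over all 16908 tested genes, called under 0.05, and the SE of a log2 fold change is its size over the root of F. CPM are relative to TMM-scaled library sizes, and levels use log2(CPM + 1). DESeq2 1.42.0 was an alternative. The scripts were tested on simulated data. The 10 genes and all lists were chosen with earlier results of these data known. Text names all 10 genes, from each list those with the 3 smallest p or the highest mean TPM, and the 10 genes of mean CPM of at least 1 most alike in genotype-centred pattern. Lor and Hspd1 were named after their values were seen, and some genes that this rule names are not reported here. Promoter windows are RefSeq's, and transcripts and positions are GENCODE's, all on GRCm38. The least counted of the 10 genes, Hsp25-ps1, had 246 to 657 expected counts per library.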

Additional observations from a re-analysis of the deposited data

Results flagged for a closer look

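Among 124 groups of 4 libraries, the 10 chaperone genes' and the other named genes' CPM in each genotype, 7 had 1 library far from the other 3, and chance gives about 1 in 20 groups. None of the 7 belonged to the 10 chaperone genes. Fos, an immediate early gene, was at 774 CPM in Tph1 knockout replicate 2, against 156 to 223 CPM in the other knockout libraries. Impa1 was at 19.7 CPM in Tph1 knockout replicate 3, where the others had 21.1 to 21.2 CPM. Dusp7 was at 96.4 CPM in Tph1 knockout replicate 3, where the others had 106 to 107 CPM. Clpx, a mitochondrial protease subunit, was at 39.7 CPM in wild type replicate 3, where the others had 52.4 to 53.0 CPM. Hspa9 was at 300.2 CPM in wild type replicate 2, where the others had 222 to 235 CPM. Cct3 was at 90.0 CPM and Hsf1 at 55.4 CPM in wild type replicate 4, where the others had 104 to 106 CPM of Cct3 and 48.2 to 49.2 CPM of Hsf1.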

How the results depend on the processing

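Under all 14 alternatives the mean level difference of the 10 genes (-0.53 to -0.39) moved from its main value, -0.47, by less than the SD between replicates. The log2 fold changes of the 10 genes each moved by less than their own SD between replicates, although that of Hsph1 changed sign. Their median log2 fold change of -0.46 was -0.31 with copies summed and -0.60 to -0.32 in the fits without 1 library. The number of genes called, 110, was 994 with DESeq2, 167 without wild type replicate 2 and Tph1 knockout replicate 3, and 8 to 170 in the fits without 1 library. The 3 calls in the 12 lists were 20, 6 and 0 to 7 under these settings. In the 11 lists without immediate early genes, a count chosen after seeing the data, the 0 calls were 7, 1 and 0 to 1, and 1 without the filter on low counts. List medians that turned sign were those of the other HSP70 and HSP110 genes (0.02 leaving out Tph1 knockout replicate 1, and 0.04 leaving out either wild type replicate 1 or 2), of HSP90 and its co-chaperones (0.03 without wild type replicate 2 and Tph1 knockout replicate 3) and of oxidative stress genes (0.01 leaving out the same pair or wild type replicate 1, and 0.08 leaving out wild type replicate 3). Named genes beside the 10 that turned sign were Hspa9 at -0.018 without Tph1 knockout replicate 1 (up to 0.22 without wild type replicate 2 and Tph1 knockout replicate 3, and -0.02 to 0.20 in the fits without 1 library), Hsf1 at -0.030 with the effective length correction, and Hsbp1 at 0.0048 without wild type replicate 2 and Tph1 knockout replicate 3 (-0.16 to -0.0015 in the fits without 1 library). The cause was not tested. No scaling moved the median of all genes by over 0.1. Fits with 3 libraries a genotype test fewer samples. No paired analysis was possible because the replicate numbers only name libraries in record order and the labels pair none of them.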
